A study of Mus musculus with 6 samples.

Results

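The 10 genes described here are 9 alpha-defensin genes (Defa3, Defa5, Defa17, Defa20, Defa23, Defa26, Defa27, Defa29 and Defa31) and Lyz1, which encodes the lysozyme of Paneth cells. They are 10 of 19021 genes tested on microarrays of mouse pancreatic islets. They were selected on their measured intensities: in an earlier look at the same arrays, alpha-defensin probes were bright in one of the 3 groups, Trsp-RIPKO, and dim in the floxed controls. The values of Trsp-RIPKO against TrspFF therefore chose these genes, and are given as a description with no test. All 10 genes were represented by a probe that was well above background on both arrays of at least 1 group, and together they had 15 of the 39426 probes used.

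The study measured islet mRNA in mice with a conditional deletion of Trsp, the gene of the transfer RNA that carries selenocysteine into selenoproteins. Its design text links this deletion to oxidative stress. All groups carried TrspFlox/Flox alleles on an ICR background, and the labels give all mice as male and 16 weeks old. For TrspFF mice the labels name no Cre, Trsp-RIPKO mice carried RIP-Cre, a Cre driven by the rat insulin promoter, and Trsp-Ins1KO mice carried Ins1-Cre, a Cre expressed from the mouse Ins1 gene or its promoter. RIP-Cre lines are known to be active in hypothalamic neurons as well as in beta cells. Each group had 2 arrays. The labels do not say whether the 2 came from separate animals, so the spread between them may be technical.

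Paneth cells sit at the base of the crypts of the small intestine and release granules of antimicrobial proteins into the lumen. Alpha-defensins, called cryptdins in the mouse, are small cationic peptides held by disulphide bonds that damage bacterial membranes; in the mouse their precursors are cut to the active form by the metalloproteinase Mmp7. Lysozyme breaks the peptidoglycan of bacterial cell walls. The genes of the alpha-defensins lie in a cluster of near-identical copies, and a probe made for one copy may bind transcripts of others.

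Several facts about the arrays stand before the values. The 75th percentile of processed intensity, the background-subtracted brightness of a spot in arbitrary units, ran from 206 to 255 for TrspFF and Trsp-RIPKO and was 125 and 114 on the Trsp-Ins1KO arrays, where 52.7% and 51.9% of spots were well above background against 58.0% to 61.5% on the others. No spot was saturated. Both Trsp-RIPKO arrays lay on a slide of their own, while the other 4 shared another slide, so for Trsp-RIPKO the slide and the genotype cannot be told apart. The scanner software marked both Trsp-RIPKO arrays, and none of the 4 others, for evaluation. The labelled sex does not cover all that was seen: Xist, the RNA of the inactive X chromosome, had log2 values relative to the 75th percentile of 1.04 and 1.32 in Trsp-RIPKO and -0.60 and -0.36 in TrspFF, and was not above background in Trsp-Ins1KO. Ddx3y, a gene of the Y chromosome, was above background on all 6 arrays and lowest in Trsp-RIPKO, at -0.54 and -0.46. The authors' deposited table of log2 values has TrspFF and Trsp-Ins1KO exchanged relative to the scanner files: its TrspFF columns matched the Trsp-Ins1KO scans and the reverse (r = 1.00 for each over 11903 probes), with Trsp-RIPKO matched to its own. No source says which naming is right, and the groups below are those of the scanner files. The defining islet genes were present: 12 of 12 islet endocrine markers, insulin among them, were well above background on every array.

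Sequences upstream of 4 of the 10 genes (Defa20, Defa23, Defa31 and Lyz1) were matched by symbol in a table of RefSeq promoters of build GRCm38.p6. They are shown because the 3 defensin promoters resemble each other more than they resemble that of Lyz1. Whether the upstream sequence bears on the array values was not tested. Each is the 250 bases before the annotated start, read 5′ to 3′ on the gene's strand, and capitals mark the motif TATAAA, the core of the TATA box, and ATCAAAG, which is CTTTGAT read from the other strand. The window of Defa31 lies at chr8:21191323-21191572, plus strand, Defa20 at chr8:21509008-21509257, plus strand, and Lyz1 at chr10:117292869-117293118, minus strand.
Defa31: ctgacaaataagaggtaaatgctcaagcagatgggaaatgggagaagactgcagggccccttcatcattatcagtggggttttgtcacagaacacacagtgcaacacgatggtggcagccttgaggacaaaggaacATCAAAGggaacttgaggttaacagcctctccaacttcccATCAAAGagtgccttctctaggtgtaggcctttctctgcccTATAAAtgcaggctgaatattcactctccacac
Defa20: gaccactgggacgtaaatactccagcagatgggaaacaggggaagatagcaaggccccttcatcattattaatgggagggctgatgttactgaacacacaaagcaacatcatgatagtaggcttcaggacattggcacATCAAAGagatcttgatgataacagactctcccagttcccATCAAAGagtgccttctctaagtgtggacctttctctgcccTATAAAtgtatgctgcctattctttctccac
Lyz1: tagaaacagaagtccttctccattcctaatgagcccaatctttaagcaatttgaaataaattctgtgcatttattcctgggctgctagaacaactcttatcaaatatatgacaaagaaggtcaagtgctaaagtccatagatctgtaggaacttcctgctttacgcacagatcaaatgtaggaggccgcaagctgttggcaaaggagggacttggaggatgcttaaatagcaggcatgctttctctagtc

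The upstream sequence of Defa23 (chr8:21054790-21055039, plus strand) was identical to that of Defa31 over all 250 bases, and Defa20 matched both at 78.3% of aligned bases. TATAAA stood 33 to 28 bases before the start in Defa23 and Defa31, 31 to 26 bases before it in Defa20, and nowhere on either strand in Lyz1. On either strand of the 250 bases it was present in 15 of the 16 alpha-defensin promoters in the table, against 12.4% of all 32851 promoters. With the search limited to the gene's strand and to a first base 40 to 20 bases before the start, it was present in 7 of the 16 and in 3 of the 3 member promoters, against 1.99% of all. T-cell factor is the transcription factor through which Wnt signals act in crypts, and 4 forms of its motif were searched on both strands. CTTTGAA and CTTTGTT were planned, while CTTTGAT and CTTTGTA were added after these promoters had been read. The planned forms and CTTTGTA were in 0 of the 16 alpha-defensin windows. Any of the 4 forms was in 14.8% of all promoters. The form CTTTGAT was in 13 of the 16 windows, against 3.21% of all promoters, a description only because it was added with these windows known. It stood on the strand opposite the gene in each of the 3 member defensins, at 114 to 108 and 74 to 68 bases before the start in Defa23 and Defa31 and at 112 to 106 and 72 to 66 bases before it in Defa20. The Lyz1 window held none of the 4 forms. These are matches of letters, shared among copies of one gene family, and not sites shown to be bound.

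Across the 120 pairs of the 16 alpha-defensin promoters, identity ran from 46.1% to 100%, with a median of 69.5% and 5 identical pairs. The Defa20 window was identical to that of Defa2, a gene not listed among the 10. Against Lyz1 the 16 windows matched at 47.3% to 53.0% of aligned bases, and this range lies at the low end of that among the defensins.

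**Figure D1:**
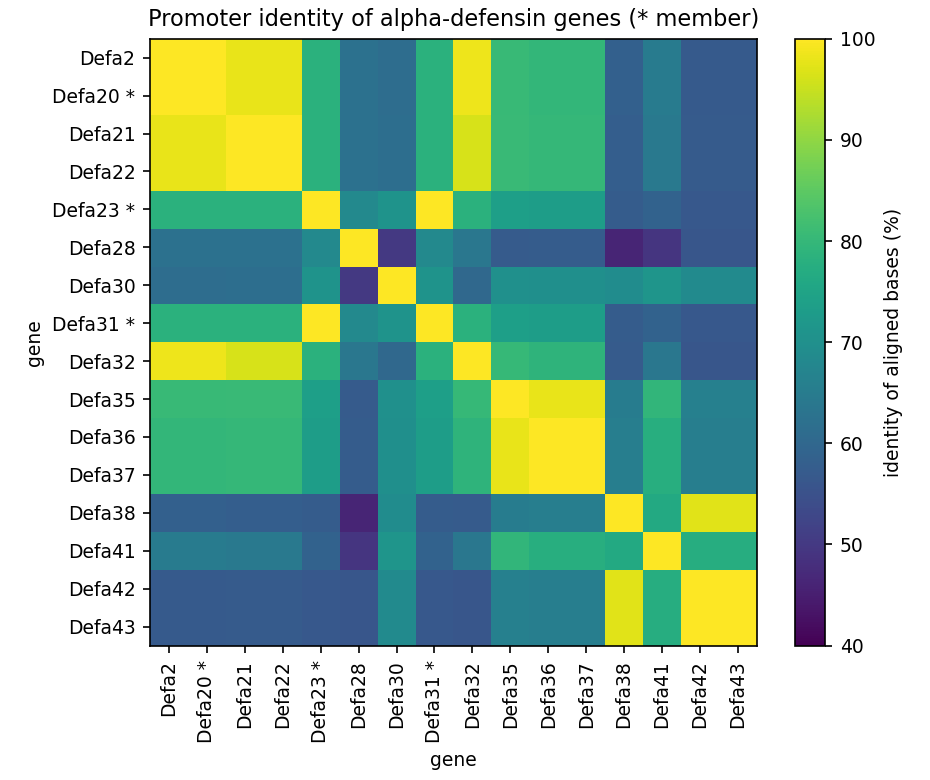
Identity of the 250 bases before the start, in percent of aligned bases, for each pair of the 16 alpha-defensin genes with a RefSeq promoter, with member genes starred; colour runs from 40% to 100%. Defa23 and Defa31 form an identical pair, Defa20 pairs with Defa2, and identities over all 120 pairs run from 46.1% to 100%.

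With 1 probe for each gene, the one brightest over all arrays, the 9 alpha-defensins were seen on the Trsp-RIPKO arrays and on no other. Of their values, 18 of 18 were well above background in Trsp-RIPKO, 0 of 18 in TrspFF and 0 of 18 in Trsp-Ins1KO. The genes were chosen as bright in Trsp-RIPKO and dim in TrspFF, and their probes entered only through the Trsp-RIPKO arrays. The counts for Trsp-RIPKO and TrspFF were thus largely set in advance. Being above background on both Trsp-RIPKO arrays and on no other array was true of 386 of all genes, or 2.03%, against 0.599% for TrspFF alone and 0.221% for Trsp-Ins1KO alone. The mRNA was measured in bulk, so more cells that make a transcript and more of it per cell cannot be told apart.

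Processed intensities are given for array 1 and array 2 of each group. Defa31 read 860.5 and 844 in Trsp-RIPKO, 3.84 and 6.57 in TrspFF and 6.39 and 6.70 in Trsp-Ins1KO. Defa17 read 477 and 459.8 in Trsp-RIPKO, 2.42 and 2.54 in TrspFF and 2.08 and 2.18 in Trsp-Ins1KO. Both genes were thus bright in 1 group and near the lowest readable signal in the others, and the groups did not overlap. Over all genes, Trsp-RIPKO lay above TrspFF without overlap for 40.7%, and above Trsp-Ins1KO for 38.6%. The genes were chosen on this brightness, so nothing is read from the lack of overlap. Defa3 read 361 and 356 in Trsp-RIPKO, 2.51 and 3.39 in TrspFF and 3.85 and 6.365 in Trsp-Ins1KO. Defa26 read 298 and 291 in Trsp-RIPKO, 3.13 and 2.33 in TrspFF and 2.05 and 2.15 in Trsp-Ins1KO. Either Trsp-RIPKO array lay far above the 4 others for these genes as well.

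Trsp-RIPKO was also the highest group for the dimmer members. Defa29, which encodes a cryptdin-related sequence peptide and not a classical cryptdin, read 199 and 206 in Trsp-RIPKO, 7.77 and 4.94 in TrspFF and 4.65 and 2.20 in Trsp-Ins1KO. Defa20 read 200.1 and 196 in Trsp-RIPKO, 8.31 and 9.999 in TrspFF and 2.05 and 2.13 in Trsp-Ins1KO. Among the 9 genes its probe held the highest TrspFF values, though these too were not well above background. Defa27 read 149 and 136 in Trsp-RIPKO, 2.65 and 2.98 in TrspFF and 2.08 and 3.08 in Trsp-Ins1KO. Defa23 read 139 and 143 in Trsp-RIPKO, 5.034 and 5.001 in TrspFF and 2.25 and 2.28 in Trsp-Ins1KO. Defa5 read 123 and 106 in Trsp-RIPKO, 3.15 and 2.96 in TrspFF and 2.59 and 2.65 in Trsp-Ins1KO. For each of these 5 genes the lower Trsp-RIPKO array was above every other array. Over all genes, 40.7% lay above TrspFF and 38.6% above Trsp-Ins1KO without overlap in Trsp-RIPKO. Brightness differs between probes for reasons of sequence, so these values do not rank the genes against each other.

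**Figure D2:**
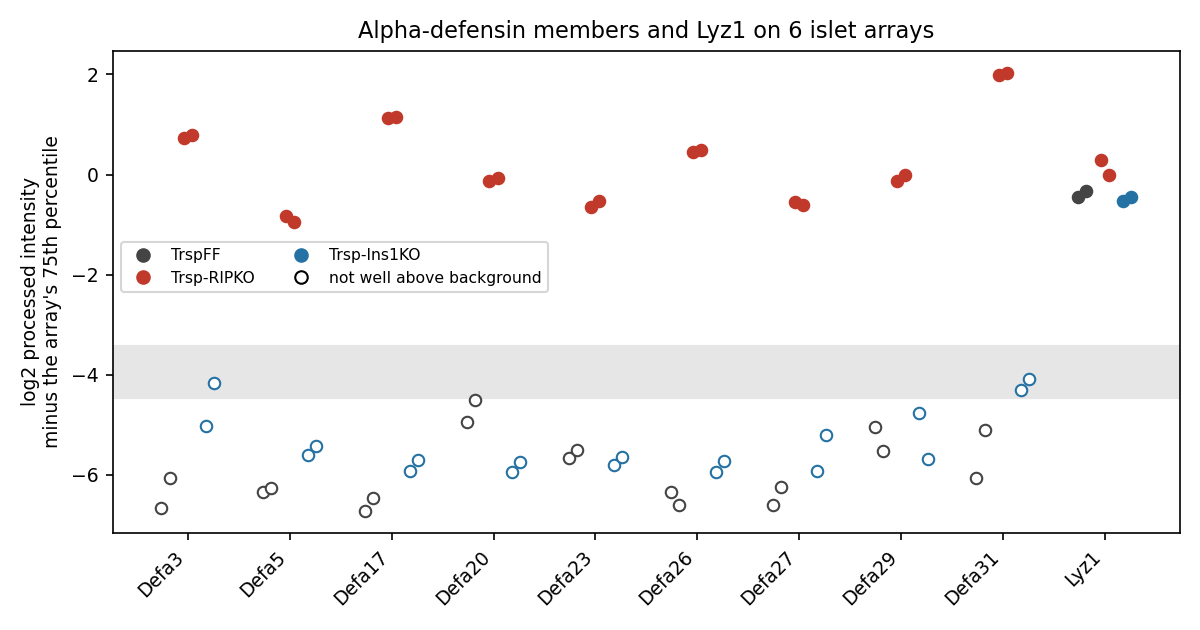
Log2 processed intensity minus the 75th percentile of the array (vertical axis) for each of the 10 genes on the 6 arrays, coloured by group; open points were not well above background, and the grey band spans the lowest value well above background on each of the 6 arrays. The 9 alpha-defensins are filled only in Trsp-RIPKO, from -0.95 to 2.04, while Lyz1 is filled in all 3 groups.

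The same split was present before any scaling. The median pixel intensity of the 9 defensin spots was 156 to 950 on the Trsp-RIPKO arrays, 42 to 59 on the TrspFF arrays and 42 to 56 on the Trsp-Ins1KO arrays, and the local background around them was 23 to 35 on all 6. As a ratio of spot to local background this was 5.38 to 37.3 (median 9.71) in Trsp-RIPKO, 1.33 to 1.90 (median 1.73) in TrspFF and 1.34 to 1.81 (median 1.60) in Trsp-Ins1KO. Each of the 15 member probes had a single spot, and the closest pair of spots, those of Defa3 and Defa29, lay 3 rows or columns apart.

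**Figure D3:**
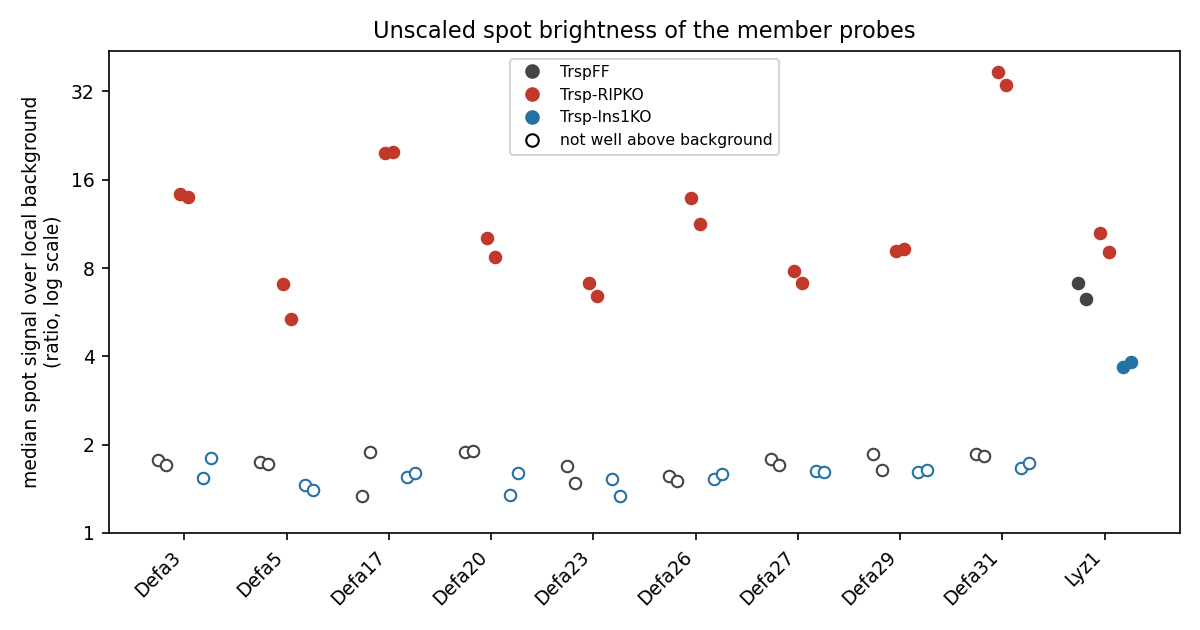
Median spot signal divided by the local background (vertical axis, log scale) for the 10 genes on the 6 arrays, with no scaling between arrays; open points were not well above background. The defensin spots lie between 5.38 and 37.3 in Trsp-RIPKO and at or under 1.90 elsewhere.

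The 2 Trsp-RIPKO arrays gave close values for the defensins. On the log2 scale, relative to each array's 75th percentile, the 2 arrays differed by a median of 0.05 and at most 0.13 over the 9 genes, beside a median of 0.11 over all genes tested. In the other groups, where the probes lie in background, the medians over the 9 genes were 0.35 for TrspFF and 0.21 for Trsp-Ins1KO.

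Because the TrspFF values are background, only a lower limit of the fold can be given: the Trsp-RIPKO mean over the higher of the probe's own signal and the lowest signal well above background on each TrspFF array. By this limit Defa31 was at least 83.6-fold higher in Trsp-RIPKO, Defa17 at least 45.9-fold, Defa3 at least 35.2-fold and Defa26 at least 28.9-fold. Defa29 and Defa20 were at least 19.8-fold and 19.4-fold higher, Defa27 and Defa23 at least 13.9-fold and 13.8-fold, and Defa5 at least 11.2-fold. The limits grow with the brightness of the probe, so their order is not an order of true changes. The median measured log2 difference of the 9 genes was 5.84 (range 4.62 to 7.74), beside 0.03 over all genes, of which 20.3% passed the test as higher in this comparison; all 9 genes were chosen in it, so nothing is read from that share.

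Background was also corrected by normexp, a model of signal and background, with an offset of 50 added to every spot. The median of the 9 limits then dropped from 4.31 to 2.10 on the log2 scale. Without any filter on dim probes the count of all genes called fell from 6719 to 2720. The count over all genes was 917 without TrspFF array 1, 1258 without TrspFF array 2, 2137 without Trsp-RIPKO array 1 and 1638 without Trsp-RIPKO array 2.

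Limits of 10-fold or more, with no array of the other groups above background, were reached by 14 genes, or 0.0736% of all tested. The 9 alpha-defensins made up 9 of these 14, a share largely set in advance because they were chosen on the same values. Of the rest, 4 are transcripts that the tables used here do not name (XM_001475907, at least 80.8-fold; XM_001476991, 41.9-fold; ENSMUST00000098889, 34.4-fold; XM_909689, 16.6-fold), and the last is Fabp2, the fatty-acid-binding protein of enterocytes, at least 11.1-fold. XM_001475907 read 823 and 824 in Trsp-RIPKO and 4.30 to 8.31 on the other 4 arrays. Fabp2 read 114 and 112 in Trsp-RIPKO and 2.13 to 7.66 elsewhere.

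**Figure D4:**
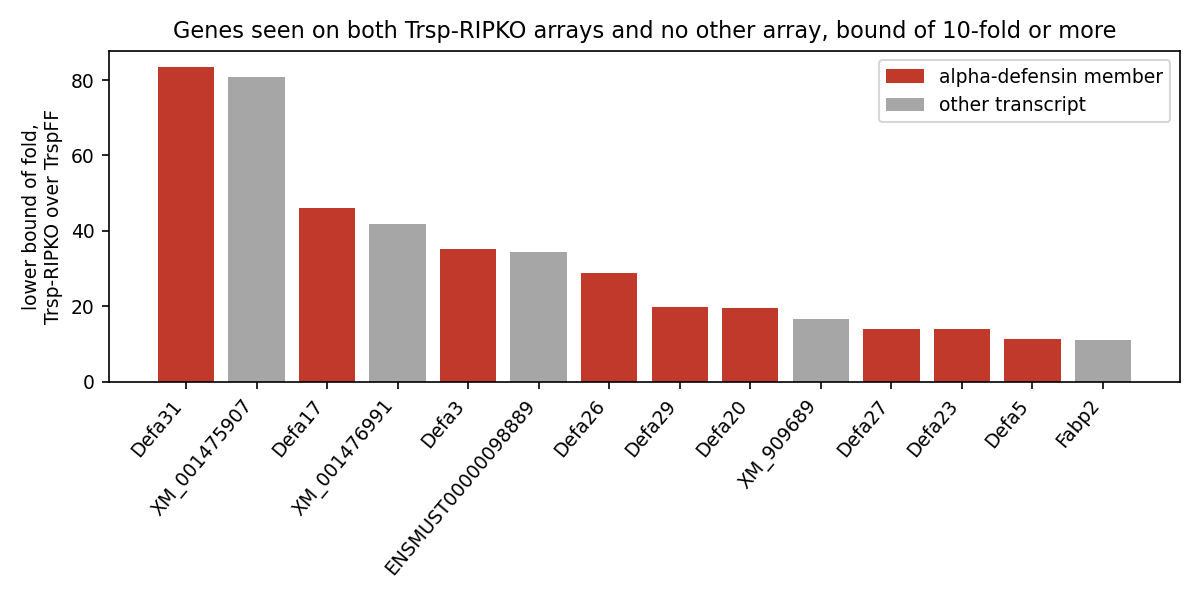
Lower limit of the fold, Trsp-RIPKO over TrspFF (vertical axis, from 0), for the 14 genes well above background on both Trsp-RIPKO arrays and on no other array with a limit of 10-fold or more; red bars are the alpha-defensin members. Bars run from 83.6-fold for Defa31 to 11.1-fold for Fabp2.

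Against the other Cre line the direction was the same, though this comparison shares the Trsp-RIPKO arrays with the one that chose the genes. Defa31 was at least 46.2-fold higher in Trsp-RIPKO than in Trsp-Ins1KO, Defa17 at least 25.4-fold, Defa3 at least 19.4-fold and Defa26 at least 15.9-fold. Defa29 was at least 11.0-fold higher, Defa20 at least 10.73-fold, Defa27 at least 7.71-fold, Defa23 at least 7.65-fold and Defa5 at least 6.204-fold. These limits are smaller than those over TrspFF because, after scaling, the lowest signal above background lay higher on the dimmer Trsp-Ins1KO arrays (-3.62 and -3.42) than on the TrspFF arrays (-4.46 and -4.29).

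Between Trsp-Ins1KO and TrspFF no change of the 9 defensins can be given, since none of the 9 probes used was well above background in either group. The fit nevertheless passed 7 of the 9 at an adjusted p under 0.05, beside 46.0% of all genes in this comparison, with a median measured difference of 0.78 (range -1.12 to 1.77). The unscaled values went the other way: the median processed intensity of the 18 values was 2.27 in Trsp-Ins1KO and 3.27 in TrspFF, while after subtraction of the 75th percentile the medians were -5.67 and -6.15. These calls compare background with background, so they are not reported as changes. The count over all genes in this comparison was 8745, and it was 3590 without TrspFF array 1 and 4086 without TrspFF array 2.

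A second probe was on the array for 5 of the defensins. Those of Defa3 and Defa29 gave limits over TrspFF of 29.3-fold and 16.0-fold, near those of the first probe. The second probe of Defa26 was also above background in Trsp-RIPKO alone, but dim, at 21.1 and 26.3, with a limit of 2.31-fold. The second probe of Defa5 was well above background on no array, at 8.65 and 9.61 in Trsp-RIPKO and 2.83 to 3.55 elsewhere. That of Defa20 was above background on TrspFF array 2 only, where it read 17.1, and read 9.37 and 4.64 in Trsp-RIPKO. The 2 probes of Defa5 and of Defa20 thus disagreed, and with probe sequences not used here, which copies each probe binds was not tested.

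Of 6 other genes and pseudogenes on the array named as alpha-defensins, each with 1 probe, 2 were seen, again on the Trsp-RIPKO arrays alone. Defa39 read 40.8 and 50.05 in Trsp-RIPKO, 8.63 and 7.17 in TrspFF and 12.8 and 5.05 in Trsp-Ins1KO, at least 4.43-fold higher than in TrspFF. The pseudogene Defa-ps1 read 28.8 and 31.4 in Trsp-RIPKO, 6.47 and 7.31 in TrspFF and 3.51 and 9.34 in Trsp-Ins1KO, at least 2.95-fold higher than in TrspFF. The other 4 (Defa21, Defa25, Defa-ps12 and Defa-ps13) were well above background on no array. Outside the 9 members, no probe named as an alpha-defensin reached a limit of 10-fold. Among the named genes, Defa5 at 11.2-fold and Defa39 at 4.43-fold stand next to each other across that line. Whether any of the 4 unnamed transcripts beyond 10-fold is an alpha-defensin was not tested.

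In the authors' deposited table, both Trsp-RIPKO columns were the highest of the 6 for 9 of the 9 defensin probes used, and for 13 of all 14, the exception being the second probe of Defa20. For the 9, its centred log2 values ran from 4.54 to 6.95 in the Trsp-RIPKO columns, from -1.22 to 0.43 in the columns named TrspFF and from -2.07 to 0.22 in those named Trsp-Ins1KO. For these 9 probes Trsp-RIPKO is thus highest whichever names the other 4 columns carry. The columns matched the same scans, on which the genes were chosen, so these counts are no independent support. On the scanner values, 40.7% of all genes lay above TrspFF and 38.6% above Trsp-Ins1KO without overlap in Trsp-RIPKO.

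Lyz1 did not share the on and off pattern. It read 265 and 206 in Trsp-RIPKO, 188 and 178 in TrspFF and 87.5 and 83.4 in Trsp-Ins1KO, and was well above background on all 6 arrays. Relative to each array's 75th percentile its log2 values were 0.28 and 0.00 in Trsp-RIPKO, -0.44 and -0.34 in TrspFF, and -0.52 and -0.45 in Trsp-Ins1KO. The Trsp-RIPKO arrays were above the TrspFF arrays by a mean of 0.53, with no overlap, as were 40.7% of all genes; since Lyz1 is one of the chosen genes, no test is given. With arrays scaled to their medians this difference was 0.27, under a shift of the median over all genes from 0.03 to -0.24. Both Trsp-Ins1KO arrays were below both Trsp-RIPKO arrays, as for 38.6% of all genes, with a log2 difference of -0.63, again as a description.

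The one comparison of Lyz1 that did not choose it is Trsp-Ins1KO against TrspFF, which shares the TrspFF arrays with the choosing comparison. Both Trsp-Ins1KO arrays were below both TrspFF arrays, as for 38.7% of all genes, by a log2 difference of -0.10 (SE 0.12, n = 2 and 2), and the change did not pass (limma adjusted p = 0.528). Its 95% interval ran from -0.39 to 0.20, which includes changes of either sign. The sign turned with normexp background (0.014) and under the table's own column names (0.10).

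Lyz2, the lysozyme of macrophages and neutrophils and a close paralog of Lyz1, was much dimmer and was above background on the Trsp-RIPKO arrays alone. It read 16.7 and 14.6 there, 14.4 and 8.33 in TrspFF and 6.93 and 8.35 in Trsp-Ins1KO, with a limit of 1.37-fold over TrspFF. Lyz2 entered the test only through the Trsp-RIPKO arrays, so the filter favoured a rise. The difference from TrspFF did not pass (limma adjusted p = 0.0787). After scaling, Trsp-Ins1KO array 2 (-3.77) lay above Trsp-RIPKO array 2 (-3.82), and the limit over Trsp-Ins1KO was 0.846-fold. How far the Lyz1 probe binds Lyz2 transcripts was not tested.

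Other genes of Paneth cells and of the gut crypt did not move as one with the defensins. A list of 46 such genes had 36 on the array, of which 21 could be tested. Of the 15 others, 14 were well above background on no array, among them Mmp7, which activates cryptdins, the antimicrobial lectins Reg3b and Reg3g, and Sox9, Atoh1, Gfi1 and Spdef, transcription factors of Paneth and other secretory cells; Nod2, a bacterial sensor, was above it on 1 array. In Trsp-RIPKO against TrspFF 9 of the 21 rose, 1 fell and 11 did not pass, where 35.3% of all genes passed in either direction, and the median difference was 0.33 against 0.03 over all genes. Of the 9, 2 (Itln1 and Guca2b) entered the test only through the Trsp-RIPKO arrays, so the filter favoured their rise.

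Itln1, an intestinal lectin that binds bacterial sugars and is made by Paneth and goblet cells, came closest to the defensins. Its log2 values were -1.49 and -1.57 in Trsp-RIPKO, -5.95 and -5.40 in TrspFF and -5.84 and -5.64 in Trsp-Ins1KO. It was above background in Trsp-RIPKO alone, where it was at least 7.21-fold higher than in TrspFF. Guca2b, the gut hormone uroguanylin, was also above background there alone and rose at least 1.73-fold (limma adjusted p = 0.0103), a call lost without either Trsp-RIPKO array (adjusted p = 0.058 in each).

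The granule lectin Zg16 rose by a log2 difference of 1.53 (SE 0.11, limma adjusted p = 0.0034) and pancreatic colipase, Clps, by 1.37 (SE 0.10, limma adjusted p = 0.0034); both are made in the exocrine pancreas as well. Egf, a growth factor of Paneth cells, rose by 0.57. Rnase1, Pigr, which carries antibodies across epithelia, the Wnt target Ephb3 and Cd24a rose by 1.05, 0.96, 0.46 and 0.33, and Defb1, a beta-defensin of epithelia, fell by 0.29. The calls of Rnase1, Pigr, Ephb3, Cd24a and Defb1 were lost without either Trsp-RIPKO array (limma adjusted p from 0.081 to 0.181), and those of Ephb3, Cd24a, Pigr, Defb1 and Egf without either TrspFF array. The call of Egf was also lost without Trsp-RIPKO array 2, and that of Rnase1 without TrspFF array 1 (log2 difference 0.61) or either Trsp-Ins1KO array. Of the other Paneth-cell genes, Ang4, an angiogenin with antimicrobial activity, differed by -0.22 (limma adjusted p = 0.202) and Spink4, a protease inhibitor, by 0.27 (limma adjusted p = 0.103), and neither passed.

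Several of these calls depend on the scaling or on the group names. Values in brackets here are log2 differences and not p-values. Cd24a no longer passed with median scaling (0.07) or normexp (0.18), Ephb3 with median scaling (0.19), Rnase1 with median scaling (0.78) or quantile normalization (0.75), and Defb1 with normexp (-0.14) or quantile normalization (-0.25). Scaling aside, under the column names of the authors' table Clps (0.13), Zg16 (0.19), Pigr (0.25) and Rnase1 (0.10) did not pass, while Defb1 (0.99) and Egf (-0.53) turned.

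In Trsp-Ins1KO against TrspFF, 6 of the 21 rose, 4 fell and 11 did not pass, a share close to the 46.0% of all genes that passed in this comparison, with a median of 0.14 against -0.01 over all genes. Zg16 (1.32), Clps (1.21), Tcf7l2 (1.18), Dll4 (1.07), Egf (1.07) and Pigr (0.69) rose, while Defb1 (-1.30), Spink4 (-0.83), Ang4 (-0.81) and Slc12a2 (-0.65) fell. Itln1 was above background in neither group. The call of Pigr was lost with any array other than Trsp-Ins1KO array 1 left out, that of Slc12a2 without either TrspFF array, and that of Dll4 without TrspFF array 2. In Trsp-Ins1KO against Trsp-RIPKO 4 of the 21 were higher, 8 were lower and 9 did not pass, where 38.9% of all genes passed; that count over all genes, 7397, was 3869 without Trsp-RIPKO array 1 and 4107 without Trsp-RIPKO array 2. Each of the 10 directions against TrspFF turns if the column names of the authors' table are used, and that of Spink4 turns with normexp background as well (0.23).

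**Figure D5:**
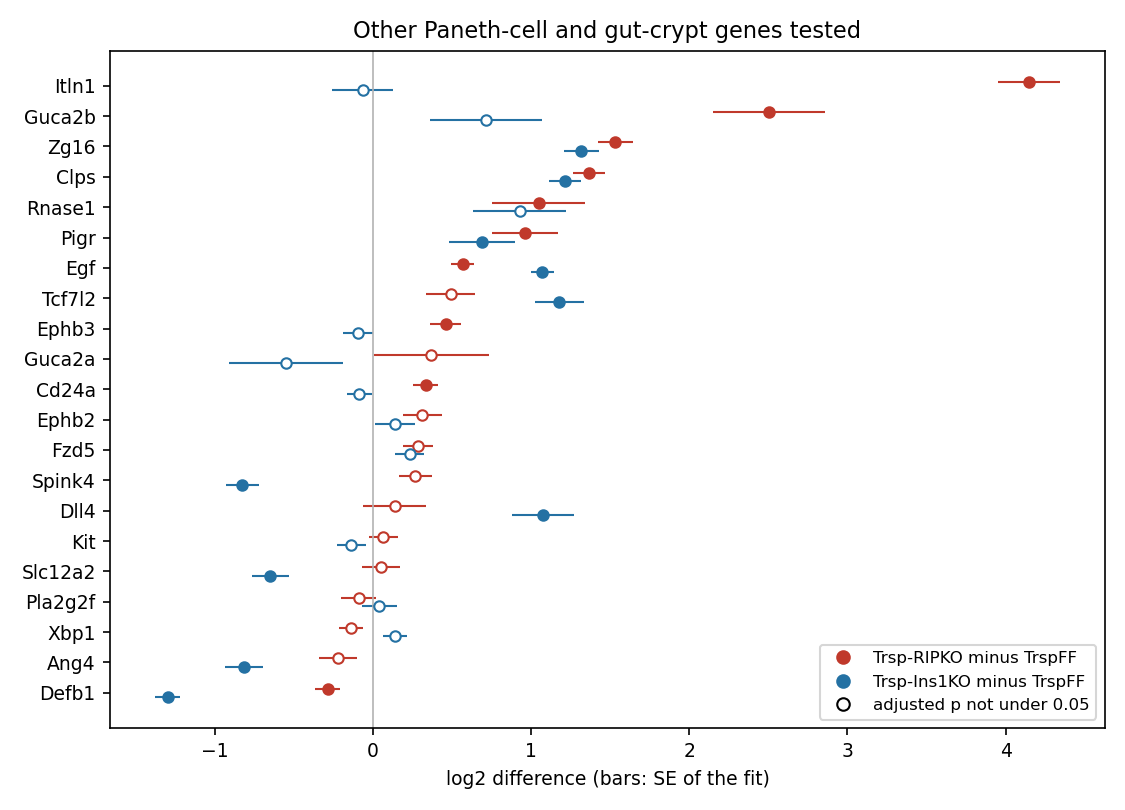
Log2 difference from TrspFF (horizontal axis, bars are the standard error of the fit) for the 21 tested Paneth-cell and crypt genes that are not among the 10, in Trsp-RIPKO (red) and Trsp-Ins1KO (blue); filled points passed at an adjusted p under 0.05. Itln1 stands at 4.15 in Trsp-RIPKO and at -0.07 in Trsp-Ins1KO, where its probe was not above background; fitted values of such genes are not folds.

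Among 9 Paneth-cell markers 5 were on the array, and 4 were tested (Lyz1, Ang4, Itln1 and Spink4), of which 4 were above background on both Trsp-RIPKO arrays, 3 on both TrspFF arrays and 2 on both Trsp-Ins1KO arrays; Mmp7, the remaining one, was above it on none. The log2 of their summed level was 1.55 and 1.39 in Trsp-RIPKO, 1.13 and 1.21 in TrspFF and 0.55 and 0.74 in Trsp-Ins1KO.

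Some markers of other cell types were higher in Trsp-RIPKO as well. Against TrspFF, where 20.3% of all genes passed as higher and 15.0% as lower, 6 of 8 tested enterocyte markers rose and 0 fell. Among those that rose, Fabp2, Lct, Apob and Krt20 entered the test only through the Trsp-RIPKO arrays, so the filter favoured their rise. Of the 8, 5 were above background on no TrspFF array, so the median measured difference of 2.85 is no fold, and with these genes at their lower limits the median was 0.77. All 8 were above background on both Trsp-RIPKO arrays against 3 of 8 in TrspFF and 4 of 8 in Trsp-Ins1KO. In Trsp-Ins1KO against TrspFF 6 of the 8 passed as higher and 0 as lower, 3 of these 6 with probes above background in neither group, beside 23.3% of all genes passing as higher. The log2 of their summed level was 3.44 and 3.49 in Trsp-RIPKO, 3.03 and 3.01 in TrspFF and 3.69 and 3.61 in Trsp-Ins1KO. Fabp1, the fatty-acid-binding protein of liver and gut, differed from the defensins in that it was above background in both Cre lines, at least 13.0-fold higher than TrspFF in Trsp-RIPKO and at least 11.3-fold in Trsp-Ins1KO. Of the intestinal genes, Cdx1, Cdx2, Alpi and Sis, which define intestinal epithelium, and Lgr5, of crypt stem cells, were well above background on no array.

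Of 5 goblet-cell markers 4 rose and 0 fell in Trsp-RIPKO against TrspFF (median 2.55, or 1.08 with 2 genes at their lower limits), with all 5 above background in Trsp-RIPKO, 3 in TrspFF and 1 in Trsp-Ins1KO, and summed levels of 0.34 and 0.39, -1.26 and -1.34, and -0.72 and -0.32. Among those that rose, Clca1 and Agr2 entered the test only through the Trsp-RIPKO arrays, so the filter favoured their rise. All 15 tested acinar markers rose in the same comparison (median 1.59), with summed levels of 4.78 and 4.96 in Trsp-RIPKO, 3.49 and 3.53 in TrspFF and 4.61 and 4.53 in Trsp-Ins1KO. In Trsp-Ins1KO, where no defensin was above background, 12 of the 15 acinar markers rose against TrspFF and 1 fell (median 1.36), beside 23.3% and 22.6% of all genes, and between Trsp-Ins1KO and Trsp-RIPKO 1 was higher, 5 were lower and 9 did not pass. With Trsp-RIPKO set against TrspFF, and the shares over all genes as above, of 5 stem-cell markers 2 rose and 0 fell, of 6 enteroendocrine markers 2 rose and 1 fell, of 5 duct markers 2 rose and 1 fell, of 6 macrophage markers 1 rose and 0 fell, and of 2 neutrophil markers 1 rose and 0 fell. Among the enteroendocrine markers Cck (3.40) and Tph1 rose and Chga (-0.56) fell. Chga, Neurod1 and Gcg, which is also one of the islet markers, were well above background on every array of these islets. Tph1 and the stem-cell marker Axin2, which rose too, entered the test only through the Trsp-RIPKO arrays. Of 12 islet endocrine markers 0 rose and 4 fell (median -0.11). The part of these cell types in the defensin signal was not tested.

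The likeness of other genes to the defensins was measured by Pearson's r over the 6 arrays with the mean profile of the 10 genes, among 773 genes above background on both Trsp-RIPKO arrays with a range of at least 2 log2 units. The highest were Dmbt1, a mucosal glycoprotein that binds bacteria (0.999), S100g, an intestinal calcium-binding protein (0.998), the transcript NR_026976 (0.998), XM_001475907 (0.997) and Adh6a, an alcohol dehydrogenase (0.996). XM_001476991, the protease Habp2, Itln1, the transcript W75484 and G6pc, the glucose-6-phosphatase of liver, kidney and gut, followed at 0.994 to 0.995, and 15 of the 773 exceeded 0.99. The members themselves, which enter the profile, ranged from 0.965 for Defa20 to 1.00 for Defa17, and Lyz1 stood at 0.931. With 6 arrays, of which 2 are high, r mostly records that split.

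Unlike the defensins, Dmbt1 was above background on all 6 arrays. Its log2 values were 1.18 and 1.03 in Trsp-RIPKO, -2.36 and -2.24 in TrspFF and -2.19 and -2.02 in Trsp-Ins1KO. Adh6a was above background in Trsp-RIPKO alone, at -2.02 and -1.84, and at least 5.45-fold higher than in TrspFF.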

How the data were processed

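Islet mRNA of 6 samples was measured on Agilent 1-colour arrays, 2 for each of 3 groups. Per the labels' protocols, RNA was extracted with Sepazol and labelled with Cy3 by the Low Input Quick Amp kit. Per the file headers, the authors read the arrays of design 026655 with Feature Extraction 10.7.3.1. The deposited files give a processed intensity for each spot, already background-subtracted, and the median intensity of spot and local background, with flags of 0 or 1. A second deposited file holds log2 values, with the scaling not stated; in it each probe is centred on its median over the 6 arrays, and the columns had medians from -0.08 to 0.14.

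The log2 of the processed intensity minus each array's 75th percentile over 43020 non-control spots was computed, outlier spots were left out, and spots of a probe were averaged. RefSeq accessions gave symbols to 66.1% of 39429 probes through a GRCm38.p6 table, used for names alone. Probes had to be well above background on every array of some group (23199 did), and the entering probe with the highest mean stood for its gene. Groups were compared over all 6 arrays with limma 3.58.1 (R 4.3.3), two-sided, with Benjamini-Hochberg adjustment over 19021 genes and a threshold of 0.05; total degrees of freedom were 5.11. The small number of arrays limits the precision. The fit was tested on simulated data. Promoters were aligned with Biopython 1.88, and tables and plots used pandas 2.3.3, numpy 2.4.6 and matplotlib 3.10.9 under Python 3.11.15.

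Members, gene lists and markers were chosen with earlier results of these data known. The genes named are the 10 members, other alpha-defensins and Lyz2, crypt genes that were called, and the 10 genes most like the members, with marker genes and those beyond the 10-fold limit named after their values were seen. The CTTTGAT and CTTTGTA forms of the T-cell factor motif were added after the promoters had been read. In medians at lower limits, genes dim in both groups were left out and limits under 1 counted as no difference. Alternatives covered background, scaling, filter, probes, samples, block, moderation, left-out arrays and the authors' table. The files hold no mean spot signal, so normexp (offset 50) used the median. No probe sequences or proteins were used here.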

Additional observations from a re-analysis of the deposited data

Results flagged for a closer look

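With 2 arrays a group, no test for a stray array was possible. The crypt and Paneth-cell genes whose 2 knockout lines differed by limma's test of Trsp-Ins1KO minus Trsp-RIPKO at an adjusted p under 0.05, both lines set against the same TrspFF arrays, were 12 of 21, beside 38.9% of all genes tested. The difference was negative for Itln1 (-4.21), Guca2b (-1.79), Spink4 (-1.10), Defb1 (-1.01), Slc12a2 (-0.70), Ang4 (-0.59), Ephb3 (-0.56) and Cd24a (-0.42). It was positive for Dll4 (0.94), Tcf7l2 (0.69), Egf (0.50) and Xbp1 (0.28). The probes of Itln1 and Guca2b were well above background on no Trsp-Ins1KO array, so their values are not folds. Both genes entered the test only through the Trsp-RIPKO arrays, so the filter favoured a negative difference. As a limit, Itln1 was at least 3.98-fold higher in Trsp-RIPKO, and Guca2b has no limit above 1. Chosen members are not among these tests.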

How the results depend on the processing

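The brightness of the defensins in Trsp-RIPKO kept its direction under each alternative that gave a value; keeping probes above background on all 6 arrays leaves no defensin. Their median difference from TrspFF, 5.84, was 2.11 with normexp, 5.504 with quantile normalization, 5.58 with median scaling, 5.41 with the mean over probes, 5.33 under the authors' own column names and 5.67 to 6.02 with 1 array left out. The median limit, 4.31 in log2, was 2.10 with normexp, 4.18 with quantile normalization, 4.08 with median scaling and 4.23 to 4.39 with 1 array left out. Trsp-Ins1KO minus Trsp-RIPKO, -5.35, was -1.65, -5.57 and -5.16 under normexp, quantile and median scaling, -5.81 under the authors' names and -5.79 to -5.26 with 1 array left out; its limit, 3.45, was 1.53 with normexp, 3.27 with median scaling and 3.35 to 3.55 with 1 array left out. Genes called numbered 6719 for Trsp-RIPKO against TrspFF (2720 with no filter, 917 to 7423 with 1 array left out), 8745 for Trsp-Ins1KO against TrspFF (14023 with normexp, 13928 with no filter, 3590 to 8251 with 1 array left out) and 7397 for Trsp-Ins1KO against Trsp-RIPKO (11896, 11251, and 3869 to 6487). Median scaling changed the first split from 3861 higher and 2858 lower to 2013 and 7264. Lyz1 in Trsp-Ins1KO against TrspFF, -0.10, was 0.014 with normexp, 0.10 under the authors' names and -0.15 to -0.04 with 1 array left out. Under those names, which exchange TrspFF and Trsp-Ins1KO, Defb1 (0.99) and Egf (-0.53) turned in Trsp-RIPKO against TrspFF, and in Trsp-Ins1KO against TrspFF so did Ang4 (0.82), Spink4 (0.83), Clps (-1.21), Zg16 (-1.31), Tcf7l2 (-1.17), Dll4 (-1.07), Defb1 (1.30), Pigr (-0.685), Slc12a2 (0.66) and Egf (-1.07); Spink4 was 0.23 with normexp. The replicate numbers do not pair the samples (correlations of replicate differences 0.08 to 0.09); with the replicate number as a block the counts were 6457, 8510 and 7006. The causes of these shifts were not tested. Dim probes, 2 arrays a group and possible binding between copies limit every value.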
